A study of Homo sapiens with 4 samples.

Results

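The genes described here encode the machinery of MHC class I antigen presentation, and they were compared between Huh7 cells with and without METTL16 KO. The set was fixed by name as 9 genes, and it holds heavy chains, the light chain, the peptide transporter, its loading partner and the inducible proteasome subunits. Rows with these names were found for 5 of the 9 among the 18806 genes listed, namely HLA-C, B2M, TAP1, PSMB8 and PSMB10. HLA-B, TAP2, TAPBP and PSMB9 are not analysed here. All 5 genes passed the filter of a mean of at least 1 TPM (transcript abundance per transcript length, scaled to the same total in each library, so that levels can be compared between genes), as did 11971 genes in all. HLA-C passed it only through METTL16 KO, where it is high, since its sgNS mean was 0.48 TPM.

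Huh7 is a line of human hepatocellular carcinoma cells. Both groups descended from 1 Huh7 clone with stable Cas9, and both were transduced with a lentiviral guide RNA and selected with hygromycin B. The sgNS group (2 libraries, genotype WT in the labels) received non-targeting guide RNA, and the METTL16 KO group (2 libraries, labelled METTL16 knockdown) received guide RNA against METTL16, an RNA m6A methyltransferase. The paper's methods call the 2 libraries of a group biological replicates, and p-values measure only the spread between them.

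MHC class I molecules show peptides from inside the cell to CD8+ T cells. Proteins are cut by the proteasome, whose catalytic subunits PSMB5, PSMB6 and PSMB7 can be replaced by PSMB8, PSMB9 and PSMB10 to form the immunoproteasome. TAP1 and TAP2 pump the peptides into the endoplasmic reticulum, where tapasin (TAPBP), calreticulin and PDIA3 help to load them onto a heavy chain paired with B2M. Hepatocytes are known for low class I levels that rise with interferon, and NLRC5, IRF1 and NF-kB are known activators of these genes.

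METTL16 stood at 26.3 and 25.1 TPM in the sgNS libraries and at 17.6 and 18.8 TPM with METTL16 KO, and it fell by 0.50 on the log2 scale (SE 0.062, adjusted p = 2.4e-05 from limma). The libraries listed 11723 to 12074 genes at 1 TPM or more, and depth is unknown because TPM keeps no read counts. The lowest of the 9 hepatocyte markers was HNF4A (160.0 to 273 TPM), and ALB stood at 7437 to 10079 TPM. Of these 9 markers, 7 were called higher and 2 lower, with a median log2 fold change of 0.70. Over all genes tested, 50.1% were called higher and 25.6% lower. Under both scalings given below, 6 markers were higher and 2 lower. In their order, these scalings called 4359 and 4420 of the 11971 genes tested higher. The ratios of means were 5.83 for AFP and 3.58 for FGB. The 7 higher markers moved in the same direction as the class I genes, while the 2 lower ones, TF and APOB, moved in the opposite direction. The part of these 9 markers in the class I result was not tested. Of 12 immune cell markers, MS4A1 was listed at 0 in every library and PTPRC, the pan-leukocyte marker, at 0.24 and 0.20 TPM in sgNS and 0.48 and 0.15 TPM in METTL16 KO. LYZ, which these cells list at 909 to 1553 TPM, made up most of the summed level of that list (1517 and 1559 TPM in sgNS, 924 and 936 TPM in METTL16 KO). Without LYZ the sum was 7.26 and 6.02 TPM in sgNS and 14.6 and 12.5 TPM in METTL16 KO, and CD68, CD14 and CD3D were called higher while LYZ was called lower (1 higher and 1 lower under both scalings). Of 8 endothelial and stromal markers, PECAM1 and PDGFRB were tested and both were lower. The other 6 were too low to be tested, at 0 to 1.18 TPM, and in 5 of them (VWF, COL1A1, COL1A2, DCN and LUM) both METTL16 KO libraries lay above both sgNS libraries. The summed level of the 8 was 7.98 and 7.45 TPM in sgNS and 6.72 and 5.88 TPM in METTL16 KO, and its part in the results was not tested. The sum without LYZ moved in the same direction as the class I genes, and its part in their change was not tested. In bulk RNA, a change in the number of expressing cells and a change in RNA per cell cannot be told apart.

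All 5 class I genes were higher in METTL16 KO by limma (adjusted p under 0.05), and in all 5 both METTL16 KO libraries lay above both sgNS libraries. Among all 11971 genes tested, 50.1% were called higher at that threshold and 56.8% had METTL16 KO libraries that lay above both sgNS libraries, so the direction alone does not set these genes apart. With the stricter rule of an unadjusted p under 0.01 and a log2 fold change of at least 1, 3 of the 5 (TAP1, PSMB8 and HLA-C) were called higher, as were 7.69% of all genes tested. The median log2 fold change of the 5 genes was 1.74, which is the value of HLA-C, and that of all genes tested was 0.16. These counts and medians describe the 5 genes and are not support for a difference from other genes, since the set was chosen with earlier results known and HLA-C passed the filter only through METTL16 KO. Of all genes called at an adjusted p under 0.05, 66.2% were higher. Scaling by size factors (each library's median ratio to the mean profile, called median-ratio scaling) gave a share of 49.9%, and quantile normalization gave 51.0%. Both brought the median of all genes to near 0. The sizes below are therefore to be read against that shift of 0.16. The 5 genes stayed higher under both scalings, and HLA-C lost its call under quantile normalization.

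**Figure D1:**
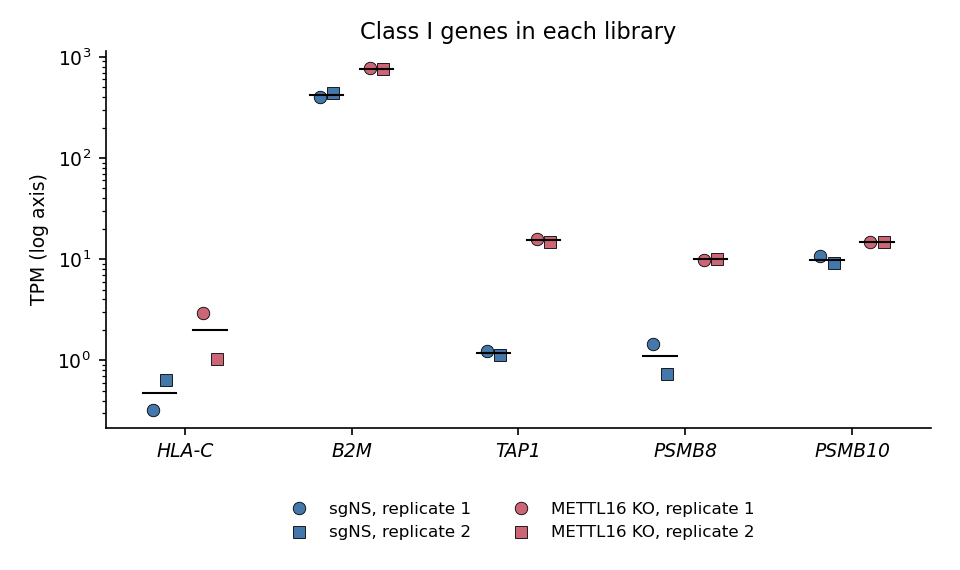
Level of each class I gene in each of the 4 libraries, in TPM on a log axis, with circles for replicate 1, squares for replicate 2 and a line at the group mean. METTL16 KO libraries lie above sgNS libraries for each gene, with the widest gap for TAP1 (1.14 to 1.25 against 14.8 to 16.0 TPM) and the narrowest, relative to its spread, for HLA-C.

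Promoter sequences of the 5 genes were taken from RefSeq (GRCh38.p14), and all 5 genes matched by symbol. They are shown as a description, because known activators of class I genes bind short motifs near the start. The part of any motif in the change of these genes was not tested. Each run holds the 250 bases before an annotated start, 5′ to 3′ on the strand of the gene, and capitals mark matches on either strand to AANNGAAA (the core bound by IRF factors), to GAAANNGAA (from the interferon-stimulated response element, ISRE) or to the NF-kB consensus. ISRE and IRF core matches can overlap. The sequences are those of the reference and not of Huh7.
TAP1, chr6:32853705-32853954, minus strand: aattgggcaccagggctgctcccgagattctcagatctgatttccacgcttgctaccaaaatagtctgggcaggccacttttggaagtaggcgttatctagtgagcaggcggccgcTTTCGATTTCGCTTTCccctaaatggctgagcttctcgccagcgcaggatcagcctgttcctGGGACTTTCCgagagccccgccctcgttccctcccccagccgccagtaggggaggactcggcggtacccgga
PSMB8, chr6:32844680-32844929, minus strand: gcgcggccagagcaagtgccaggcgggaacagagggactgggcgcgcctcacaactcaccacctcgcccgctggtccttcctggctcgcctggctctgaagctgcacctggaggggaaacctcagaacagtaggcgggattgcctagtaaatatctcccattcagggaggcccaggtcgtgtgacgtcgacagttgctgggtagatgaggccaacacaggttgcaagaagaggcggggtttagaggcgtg
PSMB10, chr16:67936851-67937100, minus strand: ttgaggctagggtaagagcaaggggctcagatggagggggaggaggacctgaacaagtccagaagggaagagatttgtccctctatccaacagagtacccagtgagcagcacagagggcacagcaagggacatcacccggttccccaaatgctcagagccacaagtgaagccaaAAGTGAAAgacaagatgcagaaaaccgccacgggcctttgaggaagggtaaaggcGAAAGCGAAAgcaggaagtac
B2M, chr15:44711267-44711516, plus strand: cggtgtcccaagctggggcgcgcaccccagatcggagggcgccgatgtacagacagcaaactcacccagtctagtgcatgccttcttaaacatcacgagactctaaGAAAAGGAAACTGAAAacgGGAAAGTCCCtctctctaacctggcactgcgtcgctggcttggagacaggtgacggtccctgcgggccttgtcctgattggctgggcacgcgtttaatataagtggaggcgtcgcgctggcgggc
HLA-C, chr6:31272093-31272342, minus strand: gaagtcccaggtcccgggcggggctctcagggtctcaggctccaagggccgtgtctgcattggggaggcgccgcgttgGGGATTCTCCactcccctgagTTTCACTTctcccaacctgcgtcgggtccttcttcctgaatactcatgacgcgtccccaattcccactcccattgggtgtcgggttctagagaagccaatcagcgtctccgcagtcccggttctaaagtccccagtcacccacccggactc

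In TAP1 the window held 2 overlapping ISRE matches from position -133 to -119 and 1 NF-kB match from -72 to -63, where -1 is the base before the start. B2M held 2 overlapping ISRE matches from -144 to -130 and 1 NF-kB match from -125 to -116. In HLA-C an NF-kB match from -172 to -163 was followed by an IRF core match from -151 to -144, with no match to the 9-letter ISRE motif. PSMB10 held IRF core matches from -76 to -69 and from -19 to -12, the second overlapping an ISRE match from -21 to -13, and no NF-kB match. The window of PSMB8 held none of these letters, and neither did the windows before a second annotated start of PSMB8 and of TAP1, which are not printed. Thus 4 of the 7 windows, in 4 of the 5 genes, held an IRF core, 3 an ISRE and 3 an NF-kB match. Over 35116 promoter windows of the same length, 20.3% held an IRF core match, 6.88% an ISRE match and 9.96% an NF-kB match. In the 13632 windows of the genes tested these shares were 15.1%, 5.41% and 11.8%. The CCAAT box, part of the module to which NLRC5 is recruited, was found in HLA-C, B2M and TAP1 and in 32.0% of all windows (33.3% of those of the genes tested). A match is a description of the letters and not a binding site, and the absence of a match says nothing of a factor.

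The peptide transporter showed the largest change. TAP1, which forms the transporter together with TAP2, lies on the minus strand of chromosome 6 from 32845209 to 32853704 (GRCh38.p14, RefSeq). It stood at 1.25 and 1.14 TPM in the sgNS libraries and at 16.0 and 14.8 TPM with METTL16 KO. The libraries of a group thus differed little, while the groups lay far apart. The mean rose from 1.20 ± 0.078 to 15.4 ± 0.83 TPM (mean ± SD of 2 libraries), with a ratio of 12.9. The log2 fold change was 3.58 (SE 0.11, 95% interval 3.33 to 3.83, adjusted p = 7.1e-10 from limma), and 43 of the 11971 genes tested had a larger one.

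The inducible proteasome subunits rose by unequal amounts. PSMB8, the inducible counterpart of the chymotrypsin-like subunit PSMB5, lies beside TAP1 on the same strand of chromosome 6, from 32840717 to 32844679, with 529 bases between the genes. It stood at 1.46 and 0.74 TPM in the sgNS libraries and at 9.80 and 10.1 TPM with METTL16 KO. The sgNS libraries differed from each other by more than the METTL16 KO libraries did, but both lay well below them. Its promoter held none of the searched motifs, and its log2 fold change was 3.14 (SE 0.23, 95% interval 2.62 to 3.65, adjusted p = 4.2e-07 from limma), a ratio of means of 9.05, and 65 genes had a larger one. Without sgNS replicate 2 it was 2.69, and without sgNS replicate 1 it was 3.58.
PSMB8-AS1, a non-coding gene on the plus strand from 32844086 to 32846500, overlaps the ends of both PSMB8 and TAP1. The kit marks strand, but whether the authors' counting used it is not given in the sources used here. If it did not, reads of this gene and of its partners cannot be told apart.
PSMB10, the inducible counterpart of the trypsin-like subunit PSMB7, lies on the minus strand of chromosome 16 from 67934506 to 67936850. It stood at 10.7 and 9.17 TPM in the sgNS libraries and at 14.7 and 14.9 TPM with METTL16 KO. Its groups did not overlap, yet its rise was the smallest of the 5 genes, with a log2 fold change of 0.58 (SE 0.084, 95% interval 0.39 to 0.76, adjusted p = 8.7e-05 from limma), or 0.41 above the median of all genes. In sgNS, PSMB10 was thus listed well above PSMB8 and TAP1, and in METTL16 KO the 3 genes stood between 9.80 and 16.0 TPM.

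The light chain had the highest level of the 5 genes analysed in every library. B2M, which pairs with every class I heavy chain, lies on the plus strand of chromosome 15 from 44711517 to 44718145. It stood at 403 and 435 TPM in the sgNS libraries and at 769 and 765 TPM with METTL16 KO. Both METTL16 KO libraries lay far above both sgNS libraries, relative to the spread. The mean rose from 419 ± 23 to 767 ± 3.2 TPM (mean ± SD of 2 libraries), with a ratio of 1.83 and a log2 fold change of 0.87 (SE 0.037, 95% interval 0.79 to 0.96, adjusted p = 5.5e-09 from limma). Its change was smaller than that of TAP1 in ratio, but the largest of the 5 genes in TPM.

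The heavy chain was listed at a low level and varied most. HLA-C, 1 of the classical heavy chains that bind and display peptide, lies on the minus strand of chromosome 6 from 31268749 to 31272092. It stood at 0.32 and 0.64 TPM in the sgNS libraries and at 2.93 and 1.04 TPM with METTL16 KO. The groups did not overlap, but in TPM the METTL16 KO libraries differed from each other by more than METTL16 KO replicate 2 differed from either sgNS library. The log2 fold change was 1.74 (SE 0.43, 95% interval 0.79 to 2.69, adjusted p = 3.5e-03 from limma). This call rested on METTL16 KO replicate 1. Without that library the log2 fold change was 1.03 and the adjusted p from limma 0.065, and over the alternatives without a replicate block the adjusted p of the linear models, limma or unmoderated, ran from 1.7e-03 to 0.21.
HLA genes are near-identical to each other and differ between people, so reads can be shared between heavy chains or fail to match the reference allele, and the level of HLA-C is uncertain for that reason. Of the 167 protein-coding RefSeq genes in the stretch of chromosome 6 that holds HLA-C, PSMB8 and TAP1 (lower coordinates from 29044213 to 33453083), 40.7% had a row among those analysed, against 88.1% of all other protein-coding genes.

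The order of levels differed between the groups. In sgNS it was B2M, PSMB10, TAP1, PSMB8 and HLA-C, where TAP1 and PSMB8 overlapped and the other neighbours did not. In METTL16 KO it was B2M, TAP1, PSMB10, PSMB8 and HLA-C, where TAP1 and PSMB10 overlapped and the other neighbours did not. Ratios between genes within a library do not depend on a factor that scales the whole library, though quantile normalization can change them. The log2 ratio of B2M to TAP1 fell by 2.71 from sgNS to METTL16 KO, and that of PSMB8 to PSMB10 rose by 2.56, each with groups that did not overlap. The ratio of TAP1 to PSMB8 changed by 0.44 with overlapping groups. With 2 libraries against 2, an exact permutation test (two-sided) cannot give a p under 0.33, which was its value for each ratio whose groups did not overlap.

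Since inducible subunits take the place of constitutive ones, they were also set against their counterparts in the same library. PSMB8 was 0.318% and 0.165% of PSMB5 in sgNS and 2.38% and 2.51% in METTL16 KO, on TPM. PSMB10 was 1.19% and 1.02% of PSMB7 in sgNS and 2.10% and 2.06% in METTL16 KO. The groups overlapped in neither pair, and the differences in log2 ratio were 3.42 for PSMB8 to PSMB5 and 0.92 for PSMB10 to PSMB7 (exact permutation p = 0.33 each, the smallest that this design can give). Both constitutive subunits fell, PSMB5 from 460 and 449 TPM to 411 and 403 TPM and PSMB7 from 896 and 898 TPM to 703 and 719 TPM. In each library the inducible subunit thus stayed at a few percent of the constitutive one or less, and transcript ratios do not measure which subunit is built into the proteasome.

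**Figure D2:**
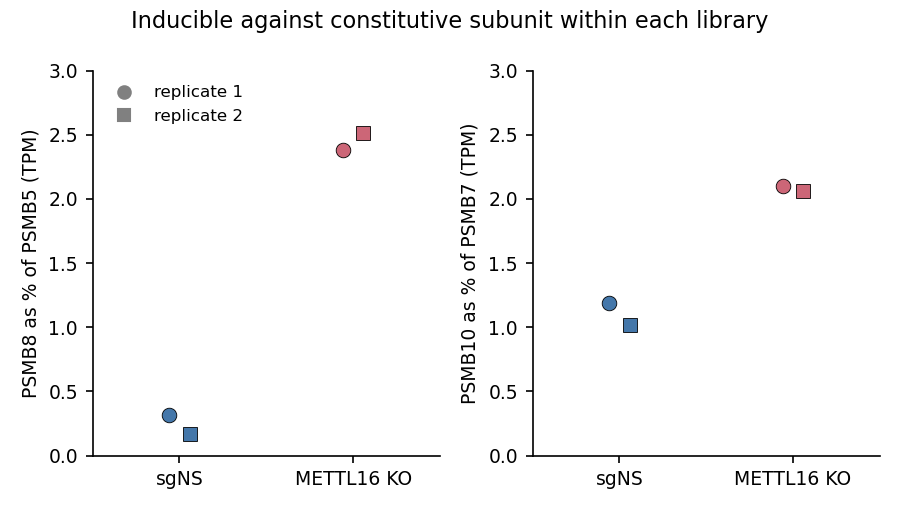
TPM of PSMB8 as a percentage of PSMB5 (left) and of PSMB10 as a percentage of PSMB7 (right) in each library, with circles for replicate 1 and squares for replicate 2. Both METTL16 KO libraries lie above both sgNS libraries in each panel, at 2.38% and 2.51% on the left and 2.10% and 2.06% on the right.

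The other genes of the pathway were read from lists fixed by name, with 98 genes besides the 9, of which 84 had a row and 68 were tested. Of these 68, 35 (51.5%) were higher and 16 (23.5%) lower by limma (adjusted p under 0.05). Over all genes tested, 50.1% were higher and 25.6% lower, so that the lists as a whole lay near the background, with a median log2 fold change of 0.13 against 0.16.

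**Figure D3:**
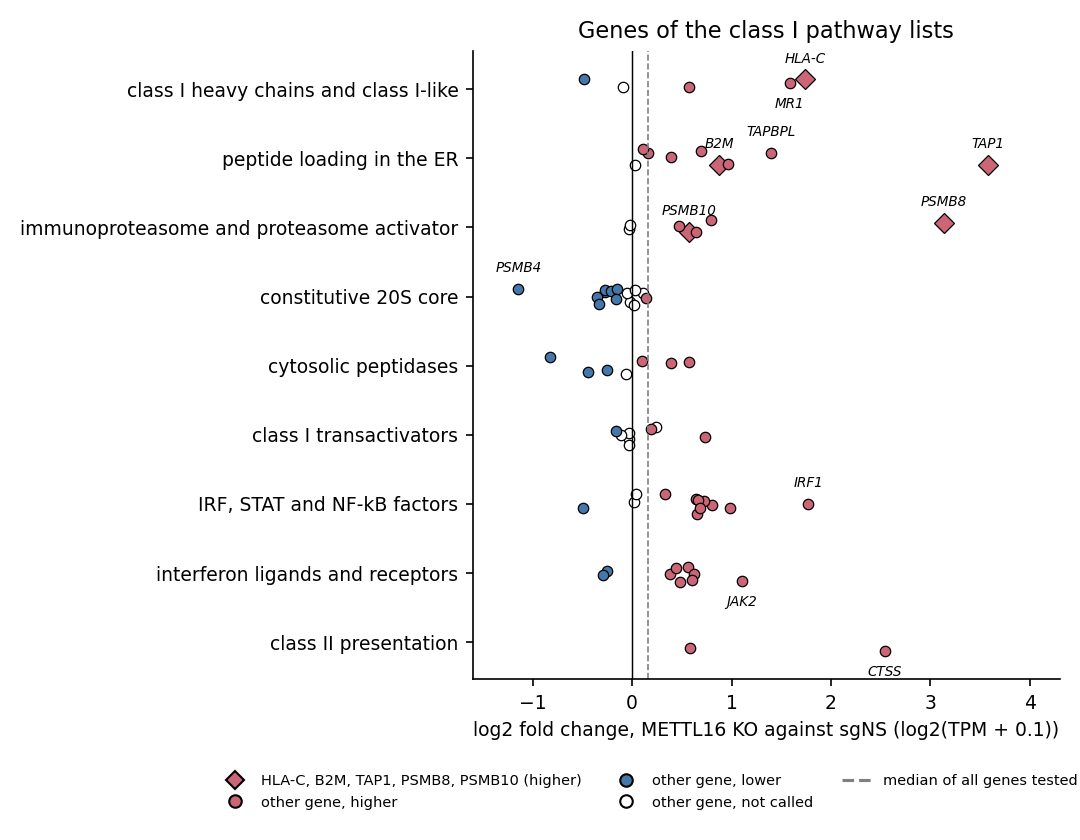
Log2 fold change of METTL16 KO against sgNS for every tested gene of the pathway lists, 1 point per gene, with diamonds for the class I genes described above, filled points for genes called at an adjusted p under 0.05 and a dashed line at the median of all genes (0.16). TAP1 (3.58) and PSMB8 (3.14) lie to the right of all other points, while every subunit of the constitutive proteasome core lies to the left of the dashed line.

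In the loading list, 6 of 7 tested genes were higher and 0 lower by limma (adjusted p under 0.05), with a median of 0.39. TAPBPL, a tapasin-like peptide editor, stood at 2.08 and 1.64 TPM in the sgNS libraries and at 5.92 and 4.26 TPM with METTL16 KO, a log2 fold change of 1.40. ERAP1, which trims peptides in the endoplasmic reticulum, went from 12.8 and 12.0 TPM to 24.6 and 24.1 TPM, a log2 fold change of 0.97. The chaperones HSPA5 and CANX had log2 fold changes of 0.69 and 0.39. The rises of CALR (0.16) and PDIA3 (0.11) were lost under median-ratio scaling (-0.0023 and -0.057), while quantile normalization gave 0.29 for CALR, still called, and 0.057 for PDIA3, not called. With median-ratio scaling, 4 genes of this list were higher and 1 was lower.
Among heavy chains and class I-like genes, 2 of 4 tested genes were higher and 1 lower by limma (adjusted p under 0.05). MR1, which presents metabolites to MAIT cells, rose from 1.90 and 1.78 TPM to 5.93 and 5.52 TPM, a log2 fold change of 1.59, and HFE, a regulator of iron uptake, had 0.57. FCGRT, the heavy chain of the neonatal Fc receptor, fell by 0.49. These 3 proteins pair with B2M, like HLA-E, the ligand of NKG2 receptors, which stood at 21.1 and 17.8 TPM in the sgNS libraries and at 18.7 and 17.7 TPM with METTL16 KO. The groups of HLA-E overlapped, with a log2 fold change of -0.088 (adjusted p = 0.35 from limma), and under median-ratio scaling and quantile normalization it was called lower (-0.25 and -0.28).

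Of 5 tested genes of the proteasome activator and assembly list, 3 were higher, like the inducible subunits, and 0 lower by limma (adjusted p under 0.05). Most of the constitutive core was lower. PSME1 and PSME2, the interferon-inducible PA28 activator, rose from 138 and 138 TPM to 242 and 236 TPM and from 206 and 204 TPM to 326 and 311 TPM. Their log2 fold changes were 0.80 and 0.64, against 0.47 for PSME3, the nuclear PA28 gamma. POMP, the assembly factor of the core, stood at 175 and 183 TPM in the sgNS libraries and at 175 and 177 TPM with METTL16 KO, with overlapping groups. The activator PSME4 had a log2 fold change of -0.031 and was not called. POMP and PSME4 were called lower under both scalings (POMP -0.19 and -0.10, PSME4 -0.20 and -0.12). Of the 14 subunits of the constitutive 20S core, 8 were lower and 1 (PSMA7) was higher by limma (adjusted p under 0.05), with a median of -0.15, and under median-ratio scaling 12 were lower and 0 higher, where 36.5% of all genes tested were lower. PSMB4 fell most, from 1055 and 1066 TPM to 496 and 465 TPM, a log2 fold change of -1.14, and PSMB6, the counterpart of PSMB9, fell by 0.36.
Of 7 cytosolic peptidases, 3 were higher and 3 lower by limma (adjusted p under 0.05). THOP1, which destroys peptides before they reach the transporter, had a log2 fold change of 0.58, while NRDC fell by 0.83 and BLMH by 0.44. Under both scalings 2 were higher and 4 lower.

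Among regulators, most IRF, STAT and NF-kB factors tested were higher, and the interferon genes read were listed at 0. NLRC5, the class I transactivator, was not tested, with 0.08 and 0 TPM in sgNS and 0.39 and 0.37 TPM in METTL16 KO. RFX5, which recruits NLRC5 to the promoter module, stood at 44.0 and 43.4 TPM in the sgNS libraries and at 42.3 and 43.2 TPM with METTL16 KO (log2 fold change -0.032, adjusted p = 0.55 from limma), and it was called lower under both scalings (-0.20 and -0.18). Of the 8 module genes tested, 2 were higher (NFYC, 0.73, and ATF1, 0.19) and 1 was lower (NFYB, -0.17), and under both scalings 1 was higher and 5 were lower.
IRF1, which binds the ISRE of class I genes, rose from 4.92 and 4.52 TPM to 16.05 and 16.64 TPM. Its log2 fold change was 1.77 (SE 0.084, adjusted p = 1.4e-08 from limma). The part of IRF1 and of the other regulators in the class I change was not tested. Of 12 IRF, STAT and NF-kB factors tested, 9 were higher and 1 lower, with a median of 0.65. RELB, IRF2 and STAT3 had log2 fold changes of 0.98, 0.80 and 0.72, and STAT2 fell by 0.50. Under median-ratio scaling IRF3 (-0.15) was called lower.
IFNG, IFNB1, IFNA1, IFNL1, IFNL2 and IFNL3 were listed at 0 in every library. Of 9 receptor and kinase genes tested, 7 were higher and 2 lower by limma (adjusted p under 0.05). JAK2 rose from 3.50 and 4.29 TPM to 8.23 and 8.64 TPM, a log2 fold change of 1.10, and IFNLR1, IL10RB and IFNGR1 had 0.63, 0.60 and 0.56, while TYK2 fell by 0.29 and IFNGR2 by 0.25.

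Class II genes, which professional antigen-presenting cells express, were listed below 1 TPM in every library where they had a row, apart from CTSS and IFI30. CIITA, their transactivator, stood at 0 and 0.02 TPM in the sgNS libraries and at 0.02 and 0 TPM with METTL16 KO. HLA-DQA1 and HLA-DRB5 were listed at 0 in every library, and CD74, the invariant chain, at 0.06 to 0.52 TPM with overlapping groups. The 2 genes of this list that were tested, CTSS and IFI30, are lysosomal enzymes that are not limited to class II. Both were higher, CTSS from 2.05 and 1.91 TPM to 12.0 and 12.0 TPM and IFI30 from 118 and 114 TPM to 172 and 177 TPM, with log2 fold changes of 2.54 and 0.59.

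The genes around TAP1 and PSMB8 were examined because HLA-C, TAP1 and PSMB8 lie in the same stretch of chromosome 6. In the stretch with lower coordinates from 29044213 to 33453083, 39 other genes were tested. Of these, 12 (30.8%) were higher and 15 lower by limma (adjusted p under 0.05), against 50.1% higher over all genes, and their median log2 fold change was 0.0054. By the stricter rule 1 of them was higher, TRIM15 with a log2 fold change of 1.44, and 0 had a log2 fold change as large as that of PSMB8. Within 100 kb of the TAP and PSMB genes, the 2 other genes with a row were HLA-DOB and HLA-DMB, neither of which was tested. HLA-DOB was listed at 0 in all but METTL16 KO replicate 1 (0.37 TPM), and HLA-DMB at 0.23 and 0.17 TPM in sgNS and 0.67 and 0.27 TPM in METTL16 KO.

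**Figure D4:**
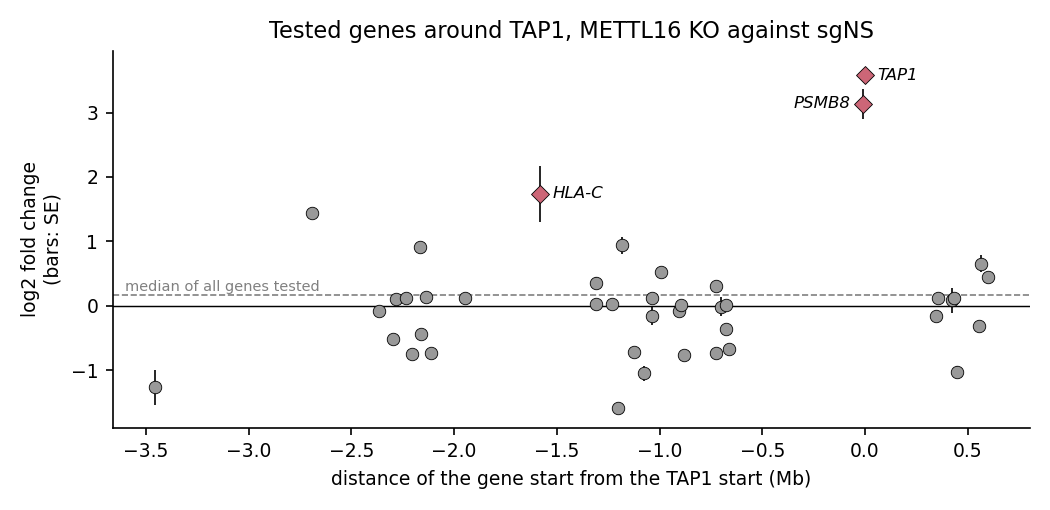
Log2 fold change of METTL16 KO against sgNS (bars, SE) for the tested genes in this stretch of chromosome 6, by distance of the gene start from the TAP1 start in Mb, with diamonds for HLA-C, TAP1 and PSMB8 and a dashed line at the median of all genes (0.16). TAP1 and PSMB8 stand at 3.58 and 3.14, and the median of the 39 other genes tested in the stretch is 0.0054. The nearest of these to TAP1, SLC39A7, starts 0.35 Mb away.

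Outside the pathway, the 5 genes whose pattern over the 4 libraries was most like the mean of the class I genes were SLC27A2, NAT8B, CHST3, DGKK and BBS5. Likeness was the root mean square distance between centred log2 values, and it ran from 0.075 to 0.090. Because the genes were chosen by this distance, their log2 fold changes (1.91 to 2.07) had to lie near the class I mean (1.98). That mean covers class I genes from 0.58 to 3.58, HLA-C among them. NAT8B and BBS5, with sgNS means of 0.48 and 0.83 TPM, passed the filter only through METTL16 KO. SLC27A2, an acyl-CoA synthetase of very long-chain fatty acids, was nearest, at 3.41 and 3.49 TPM in sgNS and 15.57 and 14.03 TPM in METTL16 KO.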

How the data were processed

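RNA-seq was conducted in 4 Huh7 libraries, and the deposited table gives 1 TPM value per gene and library. The authors used Cutadapt for trimming, STAR with GRCh38 for alignment and RSEM for quantification, per the paper's methods and the submitters' processing notes, which give no versions. These methods name RPKM as the unit, but the values of every library add up to 1000000, so it was read as TPM. Annotation is not given in the sources used here.

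From these values, log2(TPM + 0.1) was fitted over 11971 genes with a mean of at least 1 TPM by limma 3.58.1 (R 4.3.3, eBayes with trend, no block), with Benjamini-Hochberg adjustment over all of them. Fold changes are on this scale, which understates changes of low genes. Ratios were tested by exact permutation in scipy 1.17.1. Alternatives were other pseudocounts, filters, scalings and fits, the replicate block and each library left out. The fit was tested on simulated data. The members and lists were chosen with earlier results of these data known. Genes were named by rule, namely all members, METTL16, the largest called changes of each list (at most 4 per direction), fixed regulators (1 is not reported here) and interferons, neighbours tested within 100 kb (none) and the 5 genes of most similar pattern. Cell type markers, CALR, PDIA3, HLA-E, POMP, PSME4, IRF3, ATF1, HLA-DQA1, HLA-DRB5, CD74, HLA-DOB, HLA-DMB, TRIM15 and PSMB8-AS1, and the searched motifs, were chosen after values were seen.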

Additional observations from a re-analysis of the deposited data

How the results depend on the processing

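All 5 class I genes stayed higher under every alternative that could be fitted. TAP1, PSMB8 and B2M kept an adjusted p under 0.05 in all 13, with log2 fold changes from 2.90 to 3.68, 2.41 to 3.58 and 0.71 to 0.93. PSMB10 (0.40 to 0.68) lost it in an unmoderated linear model (adjusted p 0.061), and HLA-C (0.94 to 2.44) in 4 of 12, namely without a filter (0.051), with quantile normalization (0.068), in the unmoderated model (0.21) and without METTL16 KO replicate 1 (0.065). HLA-C has no value at a minimum mean of 5 TPM. The unmoderated model called 3 of the 5 genes higher, as it did 4049 of all 11971 genes tested. Leaving out 1 library at a time gave log2 fold changes of 1.03 to 2.44 for HLA-C and 0.47 to 0.68 for PSMB10. Of the 68 other pathway genes, 16 were lower in the fit as reported, 31 under median-ratio scaling and 26 under quantile normalization. Of all genes tested, 25.6%, 36.5% and 35.5% were lower in these fits. METTL16 stayed called, at -0.68 to -0.45. With the replicate block all 5 class I genes were called higher, as were 6048 of the 11971 genes tested, and 34 other pathway genes were higher against 35. With 4 libraries a block leaves little to estimate the spread, so the size of its adjusted p is not read here. Same-numbered libraries had deviations with a correlation of -0.044, so they share only a number. Leaving out each library in turn, an alternative chosen after seeing the data, gave differences in log2 ratio of 2.95 to 3.89 for PSMB8 to PSMB5 and 0.81 to 1.03 for PSMB10 to PSMB7. Depth is unknown, so no counting error can be given for genes listed at low levels, HLA-C and NLRC5 among them.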
